A study of Mus musculus with 33 samples.

Results

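The genes described here are 9083 of the 54146 listed in the count files. They were chosen for a mean of 5 CPM (counts scaled to library size) or more in 2 groups of wild-type (WT) mouse microglia that held little RNA of other cells, WT at 9 months and WT of a separate Batf3 knockout experiment at 3 months. For each gene the effect of lacking Irf8 was measured at 3 months and at 9 months as a log2 fold change, IRF8KO against WT of the same age, and the difference of the effects was the value at 9 months minus the value at 3 months. All 9083 genes passed the low-count filter that left 15512 genes for testing. Because WT at 9 months is in the floor and is also the control of the 9-month effect, a gene that WT microglia hardly express could not enter, however high it was without Irf8. Where genes of a list are counted below as rising or falling, only those that passed the floor are included. Hs3st3b1 lay just inside the floor, with 5.66 CPM in WT at 9 months and 5.01 CPM in the other WT group, and Tmem17 just outside, with 6.55 and 4.99 CPM.

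All mice were C57BL/6 and are labelled female. The groups were WT at 3 months, the control set for the knockout (4 libraries), IRF8KO at 3 months (4), WT at 9 months (3) and IRF8KO at 9 months (3). A further pair at 9 months, 5xFAD and 5xFAD/IRF8KO (3 libraries each), was used by neither the choice of genes nor the 2 effects; 5xFAD mice express human transgenes with mutations of familial Alzheimer's disease in neurons. WT of the Batf3KO experiment (3 libraries, 3 months) served as a second control. Microglia were isolated from each brain without enzymes and sorted, and the labels give neither the exons deleted in IRF8KO nor a link between libraries of the 2 ages, so age cannot be told apart from anything else that differed between those sets of libraries.

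IRF8 is a transcription factor of the interferon regulatory factor family. It binds DNA together with partners such as PU.1 at composite sites and alone or with other family members at interferon response elements. Microglia are the resident macrophages of the brain, and they keep a signature of surface receptors that distinguishes them from blood-borne and border macrophages. They also express lysosomal protease and complement genes, which are not confined to them. Mice lacking Irf8 have microglia with an altered form and also an excess of granulocytes in blood and bone marrow.

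The libraries differed in more than genotype. At 3 months counts in genes ran from 2305663 to 16697746 in WT, with IRF8KO between 5957998 and 13070110. At 9 months they ran from 605376 to 5757466 in WT, with IRF8KO between 7165054 and 8206354. Of 15 neutrophil genes, 14 had counts in WT at 3 months (0.867% to 5.40% of gene counts) and all 15 in IRF8KO (7.75% to 16.7%). At 9 months 6 had counts in WT, where the sum was at most 0.000496%, Ngp, Ltf, Camp and Ly6g being among the 9 at 0, and all 15 in IRF8KO (6.53% to 9.13%). Red blood cell genes took 3.08% to 10.3% and 0.913% to 9.05% in WT and IRF8KO at 3 months, and at most 0.00529% and 2.39% to 15.8% at 9 months. Their part in the results below was not tested. Genes of the neutrophil, monocyte and neuron lists were not among the 9083. The number of chosen genes without a count also differed between libraries. It was 540, 702 and 295 of the 9083 in IRF8KO at 9 months and 3, 0 and 4 in WT of that age. Because WT at 9 months was in the floor, its few zeros were set by the choice of genes. At 3 months the number was 402, 124, 14 and 163 in WT and 140, 162, 111 and 95 in IRF8KO. Scaled down to the depth of the shallowest library, 605376 counts, 1194, 1278 and 639 would be expected in IRF8KO at 9 months. For 3 months the expected numbers were 779, 533, 331 and 538 in WT and 370, 474, 308 and 294 in IRF8KO. Against the label, 11 of the 14 libraries had Y-linked transcripts without Xist, 1 had Xist alone, 1 had both and 1 had neither at 10 CPM or more. P-values measure the spread between these libraries, and in sorted bulk RNA fewer cells of a type and less RNA per cell cannot be told apart.

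Irf8 itself (chr8:120736358-120756694, plus strand) had 346, 256, 229 and 271 CPM across the WT set of 3 months, against 99.0, 98.8, 167 and 129.8 CPM without Irf8. The 9-month levels were 615, 609 and 548 CPM in WT compared with 133, 15.3 and 74.7 CPM in IRF8KO. The knockout was lower in all libraries at each age and kept counts at both. The log2 effect was -1.15 ± 0.43 (SE) at 3 months (adjusted p = 0.114, edgeR's quasi-likelihood test with Benjamini-Hochberg adjustment, used for all adjusted p-values below) and -2.99 ± 0.53 at 9 months (adjusted p = 0.000503). The counts are summed over the gene, so they do not show which exons were lost. Reads that also lie on the overlapping annotated gene Gm20388 are counted for neither gene. CPM values of single libraries here are scaled with TMM factors.

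At 3 months 365 of the 9083 genes rose and 412 fell at an adjusted p under 0.05, where 3.51% and 3.79% of all tested genes did (7.30% in either direction). At 9 months 959 rose and 1097 fell, beside 19.5% and 8.21% of all tested genes. Changes in the same direction at both ages were called for 267 genes, of which 152 fell (1.04% of all tested genes) and 115 rose (1.71% of all tested genes). Opposite changes were called for 157 genes. Of these, 133 fell at 3 months and rose at 9 (1.62% of all tested genes) and 24 rose at 3 months and fell at 9 (0.161% of all tested genes). A further 921 fell and 711 rose at 9 months only (1086 and 2511 of all 15512 tested genes, the latter 16.2%), and 127 fell and 226 rose at 3 months only (1.12% and 1.64% of all tested genes). The difference of the effects, which the choice of this comparison used and which is given as a description, was called higher at 9 months for 812 and lower for 791 genes (18.0% and 5.92% of all tested genes).

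Leaving out single libraries moved several of these counts by more than 1.5 times. Without IRF8KO replicate 1, 2 or 3 at 3 months, the rises at 3 months numbered 200, 237 and 235. Without IRF8KO replicate 1, 2, 3 or 4 the falls at 3 months numbered 124, 240, 215 and 250, and without WT replicate 1, 2 or 3 at 9 months they numbered 226, 238 and 249. Without those WT libraries the falls at 9 months numbered 592, 686 and 693, and the lower differences 387, 518 and 498. Genes that fell at both ages numbered 68, 86 and 100 without IRF8KO replicate 1, 2 or 3 at 3 months, and 85, 88 and 92 without WT replicate 1, 2 or 3 at 9 months. Genes that fell at 3 and rose at 9 months numbered 25, 82, 58 and 78 without IRF8KO replicate 1, 2, 3 or 4 at 3 months and 66, 77 and 74 without WT replicate 1, 2 or 3 at 9 months. Those that rose at 3 and fell at 9 months numbered 15 and 14 without WT replicate 1 or 2 at 3 months, 6, 15, 13 and 13 without IRF8KO replicate 1, 2, 3 or 4 at 3 months, 7, 9 and 7 without WT replicate 1, 2 or 3 at 9 months and 40 without IRF8KO replicate 1 at 9 months.

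**Figure D1:**
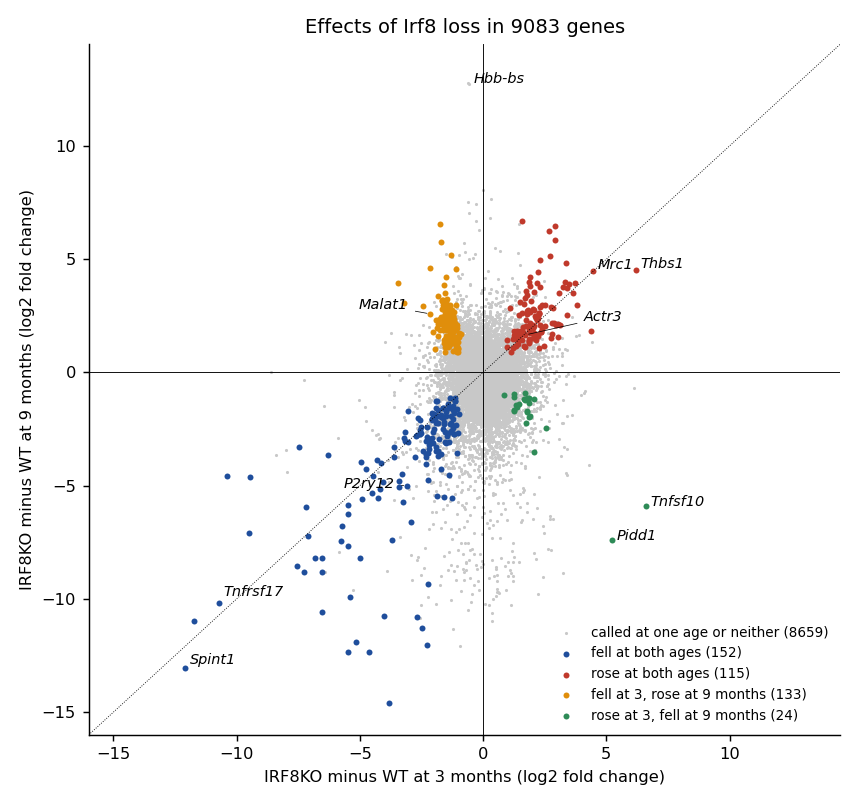
Log2 effect of lacking Irf8 at 3 months (horizontal axis) and at 9 months (vertical axis) for the 9083 genes, with genes called at both ages coloured by direction. The 152 genes called lower and the 115 called higher at both ages lie at the lower left and upper right, and the 133 that fell at 3 and rose at 9 months in the upper left.

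The genes that fell at both ages held surface receptors that mark microglia, and also complement and antigen-processing genes. Their median log2 change was -2.18 at 3 months and -3.04 at 9 months, against medians of 0.04 and -0.19 over all 9083 genes and -0.12 and 0.37 over all genes tested. In 135 of the 152, which were picked for their calls, no IRF8KO library overlapped a WT library at either age, and over all tested genes 1.92% lay wholly below WT at both ages. The fitted change was larger at 9 months in 116 of them. The difference of the effects was called in 28, and 25 had a group whose counts summed to 3 or fewer, for which a fitted fold change is no bound.

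Among cell-surface and secreted proteins, several genes expressed in every WT library had no count in the knockout. Spint1 (chr2:119237362-119249527, plus strand), an inhibitor of serine proteases at the cell surface, had 95.8, 106, 69.2 and 40.4 CPM in WT and 0 in all 4 IRF8KO libraries at 3 months. Later, at 9 months, it had 108, 119.6 and 232 CPM in WT and 0 in all 3 IRF8KO libraries. With 3 counts over the knockout group as the floor, which covers counting error only, it was at least 759-fold lower at 3 months (adjusted p = 2.71e-05) and at least 935-fold lower at 9 months (adjusted p = 2.16e-06). Tnfrsf17, a TNF receptor family member best known from plasma cells, also had no count in any of the 7 knockout libraries. It had 64.2, 22.1, 16.6 and 18.9 CPM in WT at 3 months and 22.8, 20.5 and 18.2 CPM at 9 months, and was at least 211-fold and at least 169-fold lower without Irf8 (adjusted p = 0.000406 and 0.000153). Gm42602 and Ebf3 were the other 2 of the 152 with 0 counts in both knockout groups.

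Upk1b, a tetraspanin, had 38.4, 98.8, 89.9 and 14.1 CPM in WT at 3 months and no count in IRF8KO, at least 760-fold lower (adjusted p = 0.000191). At 9 months its WT level was 518, 779 and 379 CPM and the IRF8KO libraries had 0, 0 and 0.757 CPM, a log2 change of -10.99 ± 1.11 (adjusted p = 8.25e-06). Slamf8, a surface receptor of the SLAM family chosen after its values were seen, had 24.1, 42.8, 22.5 and 6.14 CPM in WT and 0 in IRF8KO at 3 months and was at least 253-fold lower (adjusted p = 0.00644). At 9 months it had 77.4, 90.8 and 85.3 CPM in WT compared with 0, 0 and 10.5 CPM in IRF8KO. The knockout level at 9 months rested on replicate 3, and the log2 change of -4.59 ± 1.43 (adjusted p = 0.0282) was -12.03 without it, while without WT replicate 1, 2 or 3 the adjusted p was 0.0679, 0.0711 and 0.0681.

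Ly86 (chr13:37345208-37419036, plus strand), which encodes the MD-1 partner of the Toll-like receptor relative CD180, had 2211, 1520, 814 and 848 CPM in WT compared with 8.94, 2.56, 10.8 and 16.2 CPM in IRF8KO at 3 months. In the 9-month libraries it had 1005, 1128 and 718 CPM in WT compared with 8.52, 0.421 and 10.2 CPM in IRF8KO. The groups lay far apart at each age, and the knockout levels of the 2 ages overlapped. Its log2 change was -7.12 ± 0.77 at 3 months (adjusted p = 0.000106) and -7.21 ± 0.90 at 9 months (adjusted p = 1.91e-05), with a difference of -0.09 ± 0.91 and a 95% interval of -2.005 to 1.82. Cd180 itself was at -1.31 ± 0.77 at 3 months (adjusted p = 0.347) and -2.69 ± 0.93 at 9 months (adjusted p = 0.039). That call at 9 months was lost without IRF8KO replicate 1 at 3 months (adjusted p = 0.0551), without WT replicate 1, 2 or 3 (0.0954, 0.165 and 0.0661) and without IRF8KO replicate 1 or 2 at 9 months (0.0767 and 0.085).

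The other genes that the size rule picked from the falls were Gm42944, Mrc2, A830008E24Rik, Ildr1, Naalad2 and Jag2, with log2 changes from -9.52 to -5.74 at 3 months and from -10.59 to -6.77 at 9 months. They were low genes, at or under 54.5 CPM in every WT library, and each of the 6 had 3 or fewer counts in at least 1 knockout group, so these fitted changes are no bounds. The 3-month calls of 3 of them were lost with 1 library left out. For Ildr1 this held for WT replicates 1 and 2 and IRF8KO replicates 1 to 3 at 3 months and for each WT library at 9 months (adjusted p from 0.0554 to 0.0987), for Jag2 without IRF8KO replicate 1, 2 or 3 (0.082, 0.0619 and 0.0612) and for Naalad2 without IRF8KO replicate 1 (0.0503). Without IRF8KO replicate 4 at 3 months Jag2 was at -9.06, and without IRF8KO replicate 3 at 9 months Naalad2 was at -11.2.

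The homeostatic microglial list, which is made of genes taken here as markers of healthy microglia, had all of its 30 genes among the 9083. Of these, 13 fell at both ages, 13 at 9 months only and 4 at neither, with medians of -1.10 and -2.82. No gene of the list rose. Homeostatic genes took 6.76% to 12.7% of gene counts in WT against 1.40% to 2.65% in IRF8KO at 3 months, and 12.8% to 14.3% against 0.896% to 1.87% at 9 months.

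P2ry12 (chr3:59216272-59262871, minus strand), the ADP receptor that directs microglial processes to injury, had 4012, 3717, 2155 and 1708 CPM in WT compared with 324, 315, 332 and 405 CPM in IRF8KO at 3 months. Values at 9 months were 8308, 9042 and 6043 CPM in WT compared with 231, 135 and 362 CPM in IRF8KO. The WT level was higher at 9 than at 3 months in every library while the knockout levels overlapped. On the log2 scale the change was -3.07 ± 0.39 (adjusted p = 0.000267) and -5.005 ± 0.49 (adjusted p = 2.31e-06). Siglech, a sialic acid binding receptor of microglia, had 3614, 1664, 1142 and 1309 CPM in WT compared with 364, 428, 449.5 and 479.7 CPM in IRF8KO at 3 months, and 2356, 2327 and 1952 CPM against 321, 203 and 335 CPM at 9 months. Its log2 change was -2.17 ± 0.36 (adjusted p = 0.00201) and -2.95 ± 0.43 (adjusted p = 8.41e-05).

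Cst3, the secreted protease inhibitor cystatin C, was among the most abundant transcripts. It had 120300, 56230, 38270 and 59830 CPM in WT compared with 5827, 6204, 7820 and 10510 CPM in IRF8KO at 3 months, and 31360, 35420 and 23600 CPM against 5828, 3668 and 5244 CPM at 9 months. No library of the groups overlapped at either age. The fall was -3.18 ± 0.46 at 3 months (adjusted p = 0.00071) and -2.62 ± 0.52 at 9 months (adjusted p = 0.00122). Slc2a5, a fructose transporter, fell by 3.23 and 5.71 on the log2 scale (adjusted p = 0.0166 and 0.000415), and its 3-month call was lost without IRF8KO replicate 1 or 2 (adjusted p = 0.0728 and 0.0574).

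Tmem119 and Cx3cr1, surface proteins that define microglia in tissue sections and reporter mice, were called at 9 months only. Tmem119 had 1992, 1977, 1699 and 1215 CPM in WT compared with 666, 555, 1048 and 1055 CPM in IRF8KO at 3 months, and 4664, 4518 and 4304 CPM against 638, 203 and 645 CPM at 9 months. The log2 change was -1.05 ± 0.37 (adjusted p = 0.0883) and -3.18 ± 0.45 (adjusted p = 7.03e-05). Cx3cr1 was at -0.84 ± 0.32 (adjusted p = 0.127) and -2.87 ± 0.40 (adjusted p = 5.64e-05). In both genes the knockout libraries lay below all WT libraries at 3 months too, every WT library was higher at 9 than at 3 months, and the knockout levels of the 2 ages overlapped. The difference of the effects was -2.13 ± 0.56 for Tmem119 (adjusted p = 0.0106) and -2.03 ± 0.50 for Cx3cr1 (adjusted p = 0.00703), but -0.14 and 0.30 with WT of the Batf3KO experiment as the 3-month control (adjusted p = 0.949 and 0.812).

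**Figure D2:**
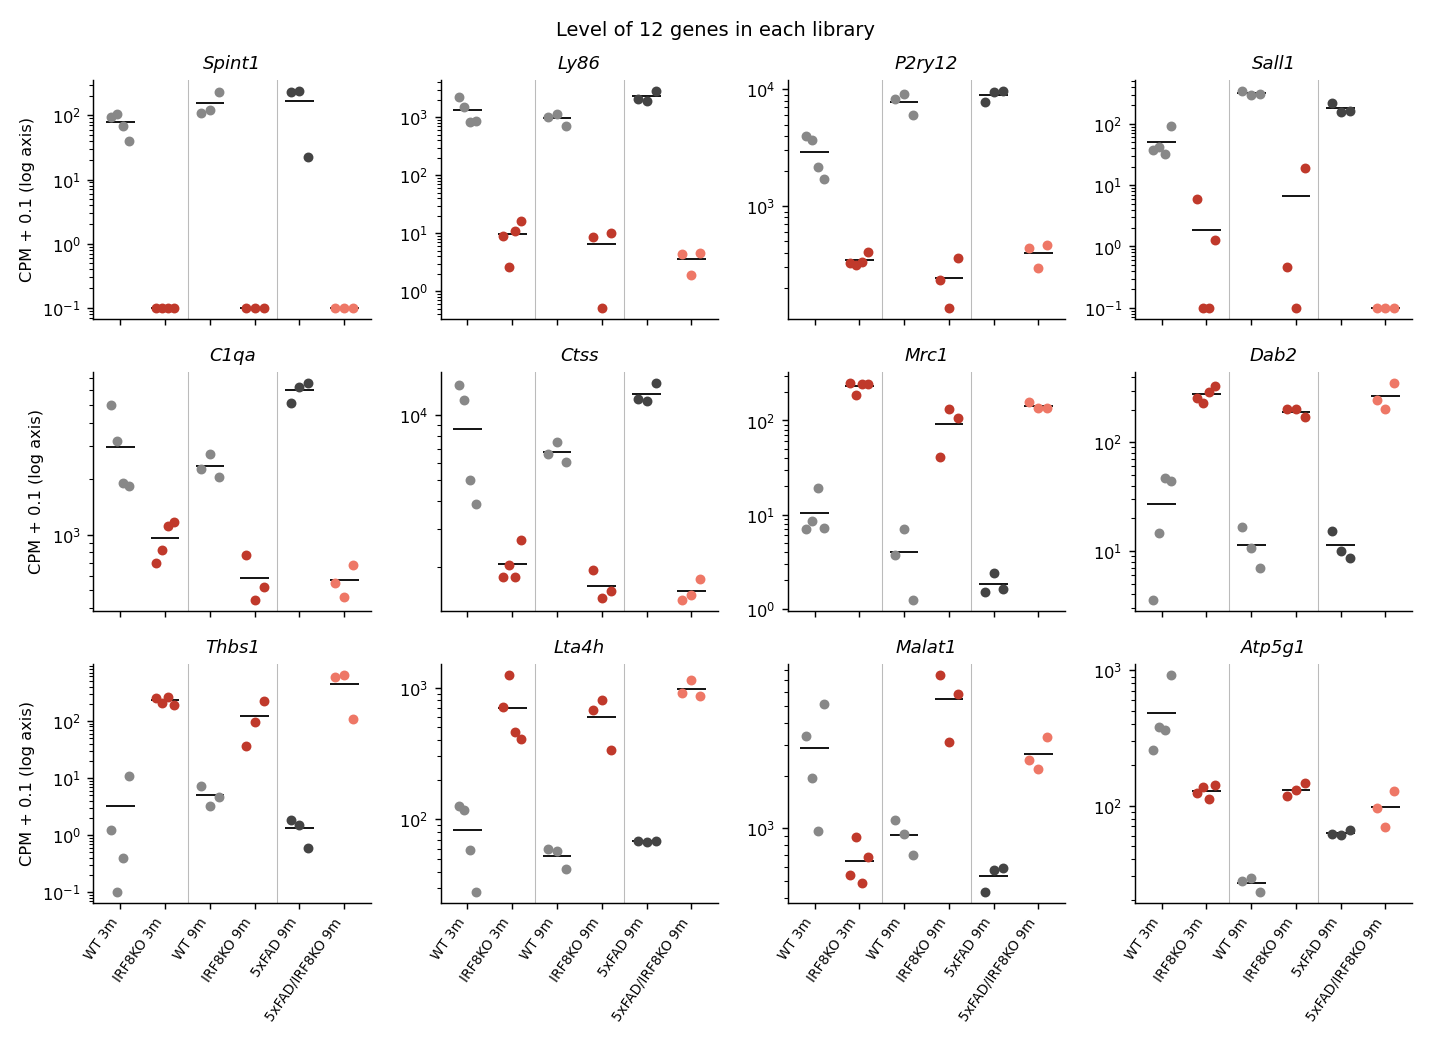
CPM of 12 genes in every library of WT and IRF8KO at 3 and 9 months and of 5xFAD and 5xFAD/IRF8KO at 9 months, on a log axis after adding 0.1 CPM, with a bar at each group's mean. The 5xFAD pair was scaled apart from the other libraries. Spint1, Ly86 and P2ry12 are lower without Irf8 in all 3 pairs of groups, Mrc1, Dab2 and Thbs1 higher in all 3, and Malat1 and Atp5g1 are lower without Irf8 at 3 months and higher at 9 months.

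Of 32 listed factors of microglia, 28 passed the floor in WT. Among these, Batf3 and Sall1 fell at both ages and 9 fell at 9 months only. Bhlhe41 rose at 3 months only and 16 were called at neither age. With WT of the Batf3KO experiment as the 3-month control, 15 of the 28 fell at 3 months and 13 at both ages, and Bhlhe41 was at 0.01 at 3 months (adjusted p = 0.979). That control set part of the floor and comes from another experiment, so these counts are a description. Batf3, a leucine zipper partner of IRF8 in dendritic cells, had 72.8, 30.1, 18.2 and 24.9 CPM in WT compared with 1.89, 0, 1.12 and 0.335 CPM in IRF8KO at 3 months. At 9 months it had 19.4, 16.9 and 15.9 CPM in WT and no count in IRF8KO, at least 143-fold lower (adjusted p = 0.00379 at 3 months and 0.000214 at 9 months). Sall1, a zinc finger repressor that maintains microglial identity, had 37.3, 41.1, 31.7 and 93.0 CPM in WT compared with 5.84, 0, 0 and 1.17 CPM in IRF8KO at 3 months, and 348, 296 and 302 CPM against 0.37, 0 and 18.9 CPM at 9 months. It fell at 3 months (log2 change -4.91 ± 1.28, adjusted p = 0.0287) and at 9 months (-5.61 ± 1.47, adjusted p = 0.00918). That 3-month call depended on WT replicate 4 (adjusted p = 0.058 when it was left out), on IRF8KO replicates 2, 3 and 4 (0.0718, 0.0652 and 0.08) and on WT replicate 3 at 9 months (0.0505), and without IRF8KO replicate 3 at 9 months the 9-month change was -10.36. Irf5, which acts downstream of Toll-like receptors, was at -1.22 ± 0.44 (adjusted p = 0.0972) and -3.42 ± 0.55 (adjusted p = 0.0002).

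Of 12 listed complement genes, 8 passed the floor in WT. Of these, 4 fell at both ages, C1qa, C1qb and C1qc among them, Itgb2 rose at 3 months only and 3 were called at neither. C1qb, a chain of the C1q molecule that starts the classical pathway, had 19860, 11100, 6601 and 5979 CPM in WT compared with 1227, 1417, 1769 and 2139 CPM in IRF8KO at 3 months. The older libraries had 5621, 6610 and 4089 CPM in WT compared with 1220, 558 and 532 CPM in IRF8KO. The knockout libraries were low at both ages, without overlap with WT. The fitted log2 change was -2.73 ± 0.45 (adjusted p = 0.0018) and -2.82 ± 0.52 (adjusted p = 0.00064), with a difference of -0.09 ± 0.64. C1qc, another chain, fell by 2.29 and 2.42 on the log2 scale (adjusted p = 0.00425 and 0.00159). C1qa fell by 1.64 and 2.00 (adjusted p = 0.0114 and 0.00195), the former with an adjusted p of 0.0659 without IRF8KO replicate 1.

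Of 32 lysosomal genes, 7 fell at both ages, 14 fell at 9 months only, Atp6v1a rose at 9 months only and 10 were called at neither, with medians of -0.27 and -1.46. With the 3-month control from the Batf3KO experiment, 30 of the 32 fell at 3 months and 27 at both ages, and the 3-month median was -1.91. These counts too are a description, since that control set part of the floor and comes from another experiment. Ctss (chr3:95526786-95556403, plus strand), the cathepsin that trims the invariant chain of MHC class II, had 13830, 11740, 5043 and 3884 CPM in WT compared with 1788, 2039, 1784 and 2649 CPM in IRF8KO at 3 months. At the later age it had 6617, 7532 and 6084 CPM in WT compared with 1928, 1425 and 1535 CPM in IRF8KO. Its log2 change was -2.06 ± 0.40 (adjusted p = 0.00568) and -2.05 ± 0.46 (adjusted p = 0.00327), and the difference was 0.01 ± 0.59, with a 95% interval of -1.23 to 1.25. Ctsh, a lysosomal aminopeptidase, had 1595, 1327, 579.8 and 393 CPM against 123, 127, 87.4 and 89.3 CPM at 3 months and 959, 1072 and 754 CPM against 115, 179 and 48.1 CPM at 9 months. It fell by 3.19 and 3.03 on the log2 scale (adjusted p = 0.000726 and 0.000473). Ctsz, also a cathepsin, fell by 1.82 and 2.25 (adjusted p = 0.0143 and 0.00253), and without IRF8KO replicate 1 at 3 months the former had an adjusted p of 0.0712.

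Of 10 listed genes of MHC class II presentation, 8 passed the floor in WT. All 8 were below 0 at both ages, 2 fell at both and 6 fell at 9 months only. The direction at 3 months turned for some of them with WT of the Batf3KO experiment as control, where 4 of the 8 fell and 3 rose, H2-Aa being at 4.33 and Cd74 at 2.77. H2-DMa, which loads peptide onto class II molecules, had 1005, 496, 278 and 182 CPM in WT compared with 44.9, 33.5, 35.4 and 47.2 CPM in IRF8KO at 3 months. At 9 months it had 273, 312 and 165 CPM in WT compared with 13.9, 9.55 and 33.3 CPM in IRF8KO, again with no overlap. Its change was, on the log2 scale, -3.60 ± 0.51 (adjusted p = 0.000653) and -3.72 ± 0.60 (adjusted p = 0.000206). Cd74, the invariant chain itself, had 2506, 235, 572 and 156 CPM in WT compared with 647, 179, 621 and 871 CPM in IRF8KO at 3 months, which overlapped (log2 change -0.58 ± 0.70, adjusted p = 0.698). The 9-month levels were 63.8, 116 and 92.2 CPM against 0.988, 6.6 and 3.91 CPM and fell by 4.56 (adjusted p = 0.00201). Of 15 MHC class I genes, none changed at both ages, Psmb8 fell at 3 months, 3 fell at 9 months, and B2m was called at neither age.

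Among 18 Fc and Toll-like receptor genes and their partners, Ly86 and Fcgr1 fell at both ages, 5 fell at 9 months only, and Tlr13, Tlr4 and Tlr2 rose at 3 months. Against WT of the Batf3KO experiment, those 3 were at -1.29, -0.88 and -1.15 at 3 months. Fcgr1, the high-affinity receptor for IgG, had 494, 445, 186 and 94.2 CPM in WT compared with 40.1, 67.8, 70.2 and 66.7 CPM in IRF8KO at 3 months, and 332, 372 and 289 CPM against 34.4, 9.27 and 30.9 CPM at 9 months. It fell by 2.31 (adjusted p = 0.00855) and 3.73 (adjusted p = 0.000183). Of 12 chemokine and receptor genes, 2 fell at both ages, Ccl9 among them. The 3-month call of Ccl9 was lost without any 1 of WT replicate 1, the 4 IRF8KO libraries and the WT libraries at 9 months (adjusted p from 0.0615 to 0.138). Aif1, the actin-binding protein IBA1 used to stain microglia and chosen here after its values were seen, had 1282, 726, 405 and 1416 CPM against 18.7, 45.0, 26.5 and 53.9 CPM at 3 months and 341, 403 and 266 CPM against 19.5, 15.2 and 18.4 CPM at 9 months. It fell by 4.73 and 4.25 on the log2 scale (adjusted p = 2.71e-05 and 1.43e-05).

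Promoters of genes called in the same direction at both ages were searched for 2 motifs that IRF8 is known to bind, on both strands of windows running 250 bases before to 50 bases after a RefSeq start (GRCm38.p6). They were the composite element shared with PU.1 (GGAA, 2 bases of any kind, then GAAA) and the interferon response element (GAAA, 2 bases of any kind, then GAAA), and a window can hold both. Of the 152 falling genes 112 had a promoter window, and 8.15% of their 135 windows held either motif, 9 the interferon response element (6.67%) and 2 the composite element (1.48%). For the rising genes the share was 7.52% of 133 windows (93 of 115 genes matched), beside 5.92% of all 32851 windows and 5.21% of those of the 9083 genes. Taken alone, the interferon response element was in 4.51% of rising, 3.44% of all and 2.96% of the 9083 genes' windows. The composite element was in 3.76%, 2.72% and 2.45% of them, so its share in the falls was below each of these. These shares are counts of letters. Several of the falling genes described above and 1 rising gene, Tgfbi, show how the interferon response element sits in such windows. Capitals mark its match, reversed where it lies on the other strand.
Aif1, chr17:35176003-35176302, minus strand: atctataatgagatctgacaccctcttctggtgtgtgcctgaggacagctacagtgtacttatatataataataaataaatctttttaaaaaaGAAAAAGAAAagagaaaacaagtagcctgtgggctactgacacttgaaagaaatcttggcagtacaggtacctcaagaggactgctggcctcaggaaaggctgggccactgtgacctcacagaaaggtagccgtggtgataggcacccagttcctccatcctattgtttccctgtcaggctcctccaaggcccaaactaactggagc
Ctss, chr3:95526536-95526835, plus strand: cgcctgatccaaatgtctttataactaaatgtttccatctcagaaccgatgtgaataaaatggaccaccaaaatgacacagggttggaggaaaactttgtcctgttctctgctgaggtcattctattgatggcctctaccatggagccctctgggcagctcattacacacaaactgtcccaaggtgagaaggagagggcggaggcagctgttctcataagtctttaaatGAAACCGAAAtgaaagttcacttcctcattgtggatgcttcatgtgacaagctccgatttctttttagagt
Slamf8, chr1:172590519-172590818, minus strand: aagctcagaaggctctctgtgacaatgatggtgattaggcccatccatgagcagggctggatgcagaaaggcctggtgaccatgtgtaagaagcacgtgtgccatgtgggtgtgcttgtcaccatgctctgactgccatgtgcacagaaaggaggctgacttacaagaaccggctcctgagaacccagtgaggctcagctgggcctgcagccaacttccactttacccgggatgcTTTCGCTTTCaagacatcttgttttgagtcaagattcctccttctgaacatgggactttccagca
Tnfrsf17, chr16:11313559-11313858, plus strand: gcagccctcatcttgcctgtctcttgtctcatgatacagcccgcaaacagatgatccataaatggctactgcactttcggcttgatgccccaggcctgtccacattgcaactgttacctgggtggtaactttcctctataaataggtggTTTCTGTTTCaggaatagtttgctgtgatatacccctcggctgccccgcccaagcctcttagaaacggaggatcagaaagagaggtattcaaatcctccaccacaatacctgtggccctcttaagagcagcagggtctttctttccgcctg
Tgfbi, chr13:56609336-56609635, plus strand: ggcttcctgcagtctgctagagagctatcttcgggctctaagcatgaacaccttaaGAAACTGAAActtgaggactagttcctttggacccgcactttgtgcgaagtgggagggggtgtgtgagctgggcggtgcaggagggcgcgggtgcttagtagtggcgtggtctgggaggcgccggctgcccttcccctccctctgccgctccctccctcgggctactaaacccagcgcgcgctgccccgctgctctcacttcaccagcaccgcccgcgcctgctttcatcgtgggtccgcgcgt
The match began 157, 21, 15 and 101 bases before the start of Aif1, Ctss, Slamf8 and Tnfrsf17 and 194 bases before that of Tgfbi. Tgfbi, a secreted matrix protein, rose by 3.02 and 1.56 on the log2 scale, so that a match stood in promoters of genes that moved both ways.

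The 115 genes that rose at both ages had median log2 changes of 2.02 and 2.11, and 107 of them, likewise picked for their calls, had no overlap between libraries at either age, where 3.26% of all tested genes lay wholly above WT at both ages. The fitted change was larger at 9 months in 72, and the difference of the effects was called in 15. Neutrophil, monocyte and border macrophage genes took larger shares of the knockout libraries at both ages. Monocyte genes took 0.0483% to 0.257% in WT against 0.592% to 1.41% in IRF8KO at 3 months, and at most 0.000418% and 0.631% to 1.53% at 9 months, with 6 of the 7, Ly6c2 and Chil3 among them, at 0 in WT at 9 months. Of 14 border macrophage genes, 13 had counts in each WT group (0.0237% to 0.0417% at 3 months and 0.0283% to 0.0327% at 9 months), 14 in IRF8KO at 3 months (0.185% to 0.245%) and 12 in IRF8KO at 9 months (0.134% to 0.167%), where Cbr2 and Folr2 were at 0. Their part in these rises was not tested.

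Mrc1 (chr2:14229392-14332057, plus strand), the mannose receptor of border macrophages, had 6.88, 8.47, 19.1 and 7.06 CPM in WT compared with 251, 187, 247 and 246 CPM in IRF8KO at 3 months. Later, at 9 months, it had 3.61, 6.85 and 1.14 CPM in WT compared with 40.4, 132 and 106 CPM in IRF8KO. All knockout libraries lay above all WT libraries. The log2 change was 4.45 ± 0.49 (adjusted p = 0.000106) and 4.47 ± 0.59 (adjusted p = 3.67e-05), a difference of 0.02 ± 0.59 with a 95% interval of -1.22 to 1.26. Dab2, an endocytic adaptor also found in border macrophages, had 3.44, 14.6, 46.5 and 44.2 CPM against 254, 231, 292 and 332 CPM at 3 months and 16.6, 10.5 and 6.83 CPM against 202, 201 and 171 CPM at 9 months. It rose by 3.32 ± 0.54 (adjusted p = 0.00166) and 4.002 ± 0.65 (adjusted p = 0.000239). Of the 4 border macrophage genes among the 9083, these 2 rose at both ages, Ms4a6c rose at 9 months only, and Stab1 rose at 3 months and fell at 9, though its 3-month effect was -1.43 with WT of the Batf3KO experiment as control.

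Thbs1 and Lta4h had the same direction. Thbs1, a secreted matrix glycoprotein, had 1.15, 0, 0.299 and 10.9 CPM in WT compared with 247, 206, 267 and 193 CPM in IRF8KO at 3 months, and 7.08, 3.19 and 4.55 CPM against 36.2, 94.6 and 227 CPM at 9 months. It rose by 6.19 ± 1.05 (adjusted p = 0.00229) and 4.52 ± 1.15 (adjusted p = 0.00757), and the former was 9.66 without WT replicate 4. Lta4h, the enzyme that makes leukotriene B4, had 127, 118, 59.0 and 27.9 CPM against 712, 1245, 457 and 408 CPM at 3 months and 59.1, 57.5 and 42.1 CPM against 672, 799 and 334 CPM at 9 months. It rose by 3.09 ± 0.49 (adjusted p = 0.00141) and 3.498 ± 0.58 (adjusted p = 0.000253). Alox5, which acts before it in the same pathway, was also among the 115 (2.79 and 2.18).

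The remaining genes picked by the size rule were Ero1l, a disulfide oxidase of the endoplasmic reticulum, Atp2a3, a calcium pump of the same compartment, the transcriptional repressor Mxd1, the ADP-dependent glucokinase Adpgk, the semaphorin Sema4a and B430306N03Rik. Their log2 changes lay between 3.23 and 3.73 at 3 months and between 3.49 and 4.83 at 9 months. Mxd1 had 58.5, 61.0, 44.8 and 11.7 CPM in WT compared with 604, 464, 504 and 389 CPM in IRF8KO at 3 months, and 42.5, 26.5 and 31.9 CPM against 734, 466 and 313 CPM at 9 months. Adpgk had 43.6, 59.95, 23.6 and 39.9 CPM against 544, 448, 442 and 329 CPM at 3 months and 27.6, 22.4 and 25.0 CPM against 289, 523 and 171 CPM at 9 months. In both genes the lowest knockout library lay above the highest WT library at each age. Enzymes of glucose use also stood among the 115, namely Hk3, Gpi1, Pygl, Gbe1, Ugp2, G6pdx, Pgd and Tkt, a grouping made after their values were seen and not tested. Other genes of sugar use fell at both ages, among them the hexokinase Hk2 (-1.31 and -2.64), the ketohexokinase Khk (-1.89 and -1.26) and the transporter Slc2a5 (-3.23 and -5.71). Against WT of the Batf3KO experiment, Hk3 and Pgd were at 0.03 and 0.46 at 3 months and were not called (adjusted p = 0.944 and 0.152).

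Genes known from disease-associated microglia, the state described around amyloid plaques, did not move as 1 group among those that passed the floor in WT. The list held 30 genes, and those left out were too low in the WT groups used for the floor. Listed genes that WT microglia hardly express are therefore not covered. Of the 22 that passed, 4 fell at both ages (Ctsz, Cd68, Ctsl and Timp2) and 2 rose at both (Apoe and Cst7). At 9 months only, 6 rose and 2 fell. At 3 months only, Lpl fell and Csf1 rose, and 6 genes were called at neither age. Without IRF8KO replicate 1 at 3 months, Ctsz and Cd68 had adjusted p-values of 0.0712 and 0.0723 at that age. Apoe, the lipid carrier, had 6772, 9060, 11600 and 3745 CPM in WT compared with 45230, 53630, 65260 and 68350 CPM in IRF8KO at 3 months, and 360.5, 449 and 302 CPM against 40490, 24910 and 32580 CPM at 9 months. It rose by 2.90 ± 0.44 (adjusted p = 0.000937) and 6.46 ± 0.59 (adjusted p = 1.71e-06), and its WT level was lower at 9 months. Against WT of the Batf3KO experiment, the 3-month rise was 6.40 and the difference of the effects went from 3.56 to -0.30. Cst7, cystatin F, had 16.1, 26.3, 9.62 and 15.96 CPM in WT compared with 64.3, 149.6, 55.2 and 65.8 CPM in IRF8KO at 3 months, and 8.18, 8.67 and 13.7 CPM against 124, 134 and 143 CPM at 9 months. It rose by 2.30 ± 0.40 (adjusted p = 0.00287) and 3.77 ± 0.51 (adjusted p = 4.25e-05). Lpl, a lipase of the same state, was at -2.29 ± 0.50 at 3 months (adjusted p = 0.0107) and 1.11 ± 0.57 at 9 months (adjusted p = 0.15). Against the other 3-month control it was at -1.18 at 3 months (adjusted p = 0.0794), and the difference of the effects was 1.92 (adjusted p = 0.188).

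The interferon and cell cycle lists had few shared changes among the genes that passed the floor in WT. Those were 18 of 26 listed interferon response genes, 10 of 20 cell cycle genes, 14 of 21 lipid-handling genes and 10 of 15 dissociation response genes. Listed genes that WT microglia hardly express are not covered. Of 18 interferon response genes, none changed at both ages, 2 rose (Ddx58 among them) and Ifi27l2a and Bst2 fell at 3 months only, Ifitm3 and Rtp4 rose at 9 months only, and 12 were called at neither. Against WT of the Batf3KO experiment, Ifi27l2a was at 1.19 at 3 months. Of 10 cell cycle genes Mcm5, part of the replicative helicase, rose at both ages and 4 rose at 1 age. The 3-month call of Mcm5 depended on WT replicates 1, 3 and 4 and IRF8KO replicates 1 and 2 (adjusted p with 1 left out from 0.0718 to 0.109), and the 9-month call on WT replicates 1 and 2 and IRF8KO replicate 1 (0.0679, 0.0613 and 0.109), the change being 1.55 without the last. Of 14 lipid-handling genes only Apoe changed the same way at both ages, and of 10 dissociation response genes 2 fell at 9 months and none at 3.

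**Figure D3:**
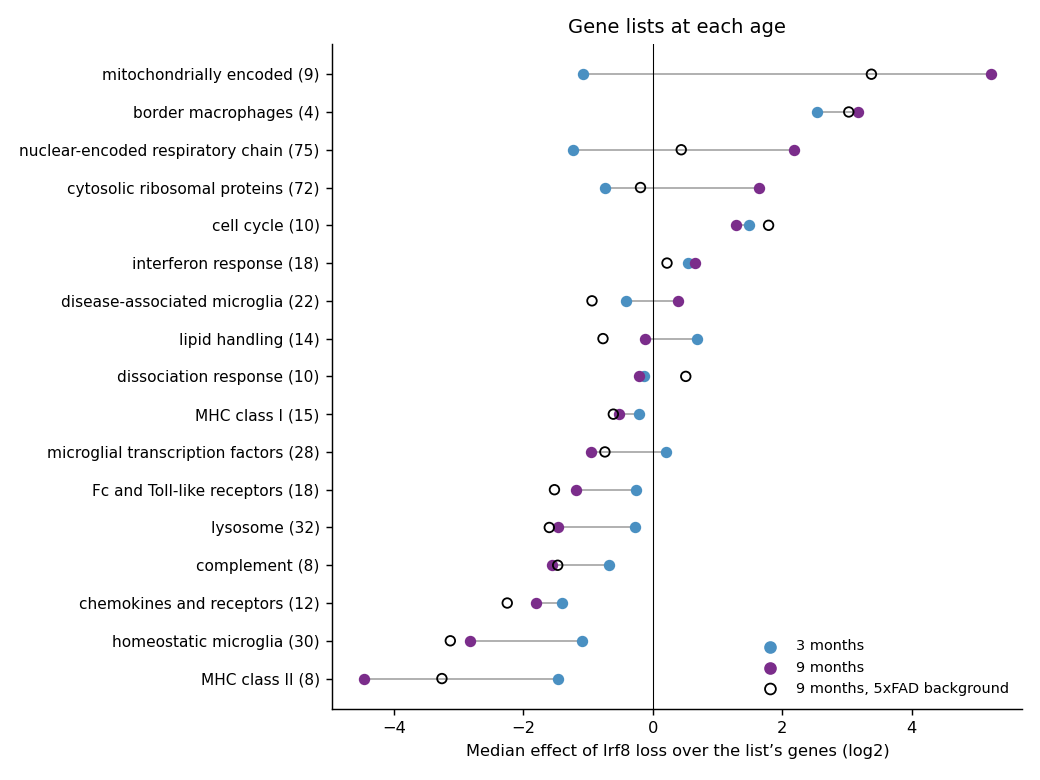
Median log2 effect of lacking Irf8 over the genes of each list with at least 4 members, at 3 months (blue), at 9 months (purple) and in 5xFAD mice at 9 months (open circle). Homeostatic genes have medians of -1.10, -2.82 and -3.13, and the respiratory chain and ribosomal lists have medians above 0 at 9 months and below 0 at 3 months, where they were 1.87 and 1.31 with WT of the Batf3KO experiment as control.

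A shared direction is not a shared size, so the 95% interval of the difference of the effects was set against a margin. Among all 9083 genes 1, Actr3, was called at both ages with an interval inside 1 log2 unit either side of 0 (0.00645% of all tested genes). Actr3, a subunit of the ARP2/3 complex that branches actin, had 200.2, 227, 142 and 119.7 CPM in WT compared with 649.8, 714, 428 and 449 CPM in IRF8KO at 3 months, and 211, 192 and 216 CPM against 652, 779 and 515 CPM at 9 months. All knockout libraries lay above all WT libraries. Its log2 change was 1.70 ± 0.29 (adjusted p = 0.00239) and 1.65 ± 0.34 (adjusted p = 0.0015), the difference -0.05 ± 0.43 and its interval -0.96 to 0.86. Within 2 log2 units there were 125 genes, 60 that fell and 65 that rose (1.38% of the 9083, beside 0.812% of all tested genes). The median SE of the difference was 0.792 over those of the 9083 genes with more than 3 counts in every group, which sets how narrow an interval could be.

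The count within 1 log2 unit was small enough to move with single libraries. Leaving out WT replicate 1, IRF8KO replicate 1 or IRF8KO replicate 3 at 3 months, or WT replicate 1 or 2 at 9 months, gave 0. It was 2 without WT replicate 2 at 3 months, 3 when WT replicate 3 or IRF8KO replicate 2 of 3 months or IRF8KO replicate 3 of 9 months was left out, and 10 without WT replicate 4 at 3 months. With WT of the Batf3KO experiment as the 3-month control it was 240. C1qb, C1qc, Ctss, Ctsh, H2-DMa, Mrc1, Aif1 and Siglech were all called at both ages with intervals inside 2 log2 units. Ly86, with an interval of -2.005 to 1.82, reached the edge of that margin and was not counted, and P2ry12, with -3.10 to -0.76, passed beyond it.

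**Figure D4:**
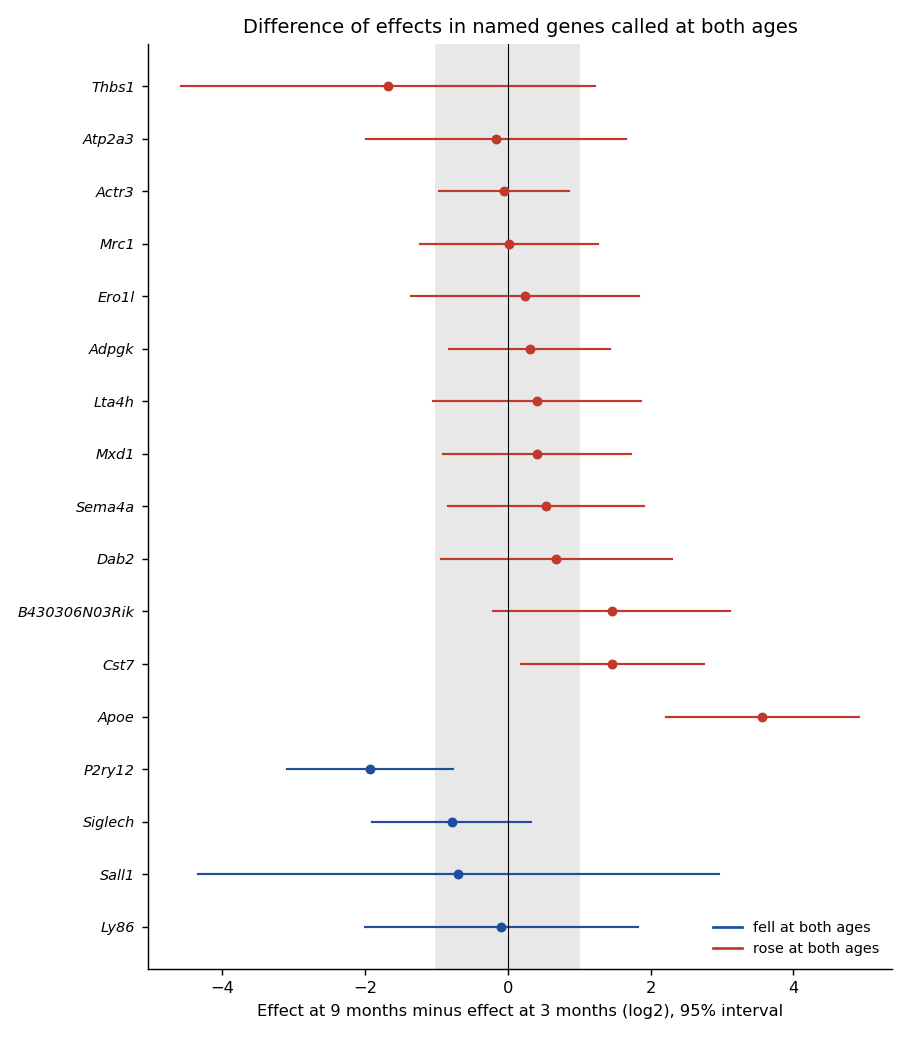
Difference of the log2 effects, 9 minus 3 months, with its 95% interval for named genes that were called at both ages in the same direction and had more than 3 counts in every group, the grey band marking 1 log2 unit either side of 0. Actr3 is the gene whose interval, -0.96 to 0.86, lies inside the band.

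The 5xFAD pair, which shares no library with either effect, gave the same directions. Of the 152 genes that fell at both ages 151 could be tested in 5xFAD/IRF8KO against 5xFAD, all 151 were below 0 and 135 fell at an adjusted p under 0.05 (11.1% of 12993 tested genes fell). Of the 115 that rose at both ages 114 were above 0 and 108 rose (18.6% of tested genes rose). Their medians were -3.49 and 2.73. Ly86 had 2091, 1877 and 2875 CPM in 5xFAD and 4.37, 1.85 and 4.42 CPM in 5xFAD/IRF8KO (log2 change -9.32 ± 0.49, adjusted p = 0.000172), and Mrc1 had 1.41, 2.32 and 1.51 CPM and 158, 135 and 136 CPM (6.34 ± 0.35, adjusted p = 0.000172). Actr3 rose by 2.11 ± 0.23 (adjusted p = 0.00125). The 5xFAD/IRF8KO libraries also held neutrophil genes, 8.29% to 14.9% of gene counts against at most 0.000207% in 5xFAD.

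Over all 9083 genes the 5xFAD pair had 938 rises and 1095 falls. The rises numbered 468, 339 and 448 without 5xFAD replicate 1, 2 or 3, and the falls 500, 443 and 670 without those libraries and 1740 without 5xFAD/IRF8KO replicate 3. The 1 exception among the rising genes was Cst7. It had 224, 538 and 844 CPM in 5xFAD and 208, 166 and 133 CPM in 5xFAD/IRF8KO, all knockout libraries lying below all 5xFAD libraries, and fell by 1.66 (adjusted p = 0.0348). IRF8KO libraries without the transgenes had 124, 134 and 143 CPM and WT libraries 8.18, 8.67 and 13.7 CPM, so that the 2 controls stood on either side of the knockout levels. The 5xFAD pair was scaled on its own 6 libraries, so these levels are set side by side across 2 scalings.

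Members of 3 gene families were among the 133 genes that fell at 3 and rose at 9 months, though most of the 133 and all 24 with the reverse pattern lay outside them. Of 75 nuclear-encoded respiratory chain genes, a list added after the values were seen, 43 fell at 3 months and rose at 9, 20 rose at 9 months only and 3 fell at 3 months only, with medians of -1.24 and 2.18. Of 72 cytosolic ribosomal protein genes, also added afterwards, 8 fell and then rose and 54 rose at 9 months only, with medians of -0.74 and 1.64. Of 9 mitochondrially encoded genes 2 fell and then rose and 7 rose at 9 months only. With WT of the Batf3KO experiment as the 3-month control these signs at 3 months flipped, and the medians were 1.87, 1.31 and 4.62.

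Atp5g1, a subunit of the ATP synthase, had 256, 379, 361 and 924 CPM in WT compared with 123, 136, 112 and 142 CPM in IRF8KO at 3 months. At 9 months it had 27.5, 29.2 and 22.8 CPM in WT compared with 117, 130.4 and 146 CPM in IRF8KO. The knockout levels of the 2 ages overlapped, and every WT library at 9 months lay below every WT library at 3 months. On the log2 scale the change was -1.90 ± 0.35 (adjusted p = 0.00357) and 2.29 ± 0.41 (adjusted p = 0.000553). Against WT of the Batf3KO experiment the 3-month change was 1.96 (adjusted p = 1.33e-05). Malat1, an abundant nuclear RNA, had 3381, 1946, 964 and 5139 CPM in WT compared with 539, 889, 489 and 687 CPM in IRF8KO at 3 months, and 1115, 924 and 705 CPM against 7481, 3086 and 5858 CPM at 9 months. It fell by 2.13 (adjusted p = 0.00994) and rose by 2.58 (adjusted p = 0.00173), and in the 5xFAD pair it rose by 2.30 (adjusted p = 0.00119).

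The WT groups differed between the ages more than the knockout groups did. WT at 9 months against WT at 3 months had 801 higher and 1068 lower genes of the 9083 (8.82% and 11.8%). Over all tested genes these shares were 5.52% and 19.7%. IRF8KO at 9 against 3 months had 54 higher and 169 lower (0.595% and 1.86%). Over all tested genes these shares were 1.30% and 1.42%, or 2.71% in either direction. These gaps use the same libraries as the difference of the effects. Of the 133 genes that fell at 3 and rose at 9 months, the WT gap was called in 131 and the knockout gap in 11. In the 5xFAD pair 95 of the 133 were above 0 and 38 below, 20 rose and 2 fell. Of the 24 genes with the reverse pattern 13 were below 0 and 11 above in 5xFAD, and 3 rose. Reads mapping to several places, which were not counted, were 20.5% to 29.7% of reads in WT against 13.2% to 29.8% in IRF8KO at 3 months, and 4.86% to 5.197% against 15.1% to 35.4% at 9 months. The part of these gaps in the effects was not tested.

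With WT of the Batf3KO experiment in place of the 3-month control, the IRF8KO libraries stayed the same. Of the 9083 genes, 36 were then called higher and 254 lower in the difference of the effects, for which shares over all tested genes were not counted. Of the 133 genes that fell at 3 and rose at 9 months, 129 then had a 3-month effect above 0 and 117 of them were called. Of the 24 with the reverse pattern 23 were below 0 and 14 of them were called. Under the swap all 152 falls kept their sign and 149 were called at both ages, and 114 of the 115 rises kept theirs and 99 were called. These counts are a description, since the level in that control was used to choose the 9083 genes and the IRF8KO libraries and all 9-month libraries are the same. The exception was Dcaf12, a ubiquitin ligase adaptor, at 0.95 ± 0.28 with its own control and -0.05 with the other, and its 3-month call was lost without any 1 of the 3-month libraries or of WT at 9 months (adjusted p from 0.0504 to 0.142) and its 9-month call was lost without WT replicate 2 or 3 (0.05 and 0.0501). In all, 1300 of the 9083 genes fell and 754 rose at both ages with that control, for which shares over all tested genes were not counted either. Both WT groups of that comparison set the floor, so genes that WT microglia hardly express could not add to the rises. Among the homeostatic list 29 of 30 fell at both. Other lists moved as well: 5 of 14 lipid-handling genes fell and 2 rose at both ages, 6 of 22 disease-associated genes fell and 7 rose, 4 of 12 chemokine and receptor genes fell and 3 rose, 10 of 18 Fc and Toll-like receptor genes fell, and 2 of 18 interferon response genes rose. The experiment differs between IRF8KO and that WT group, and it cannot be told apart from genotype.

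**Figure D5:**
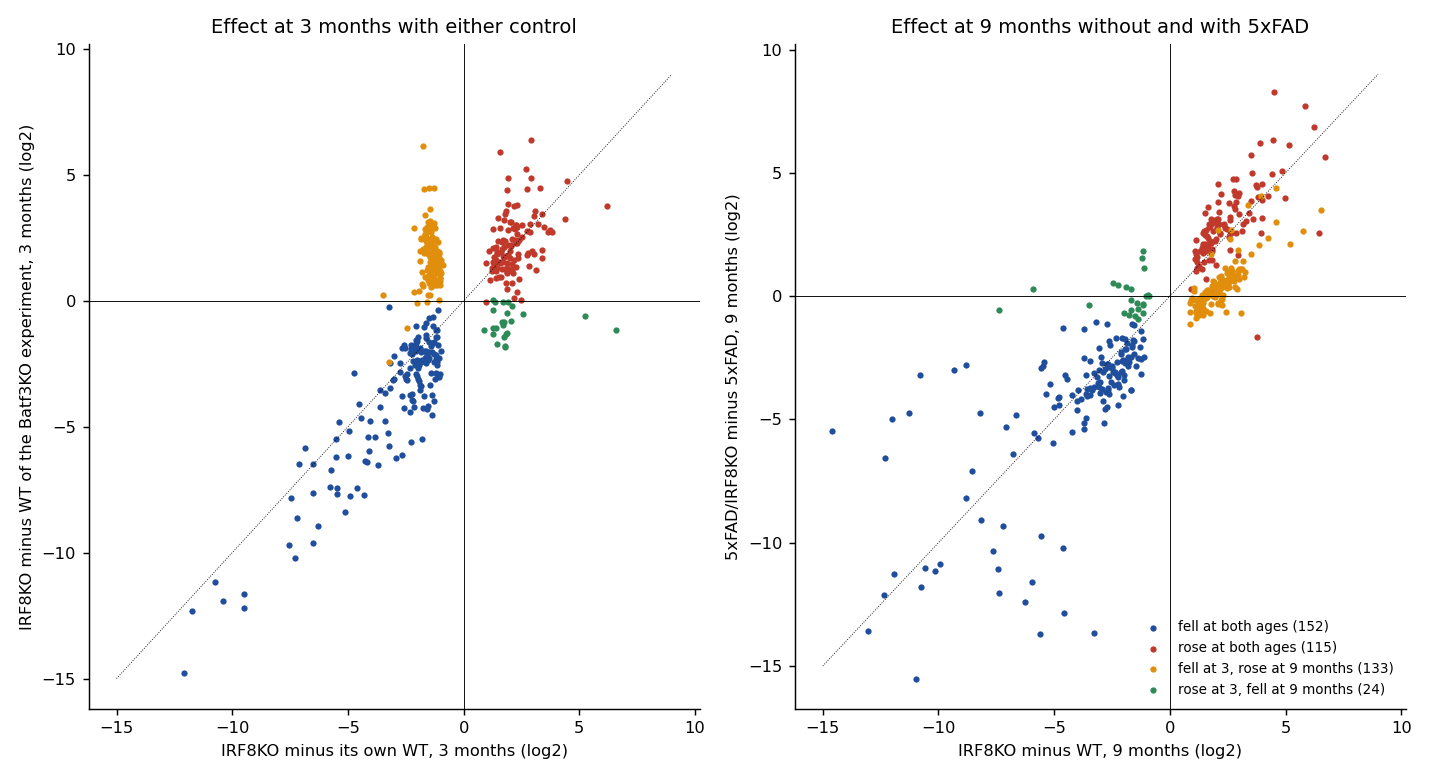
Left, log2 effect at 3 months with the study's own WT control (horizontal axis) and with WT of the Batf3KO experiment (vertical axis), 2 effects that share the IRF8KO libraries; right, log2 effect at 9 months against that in 5xFAD mice. Colours mark the 4 classes of genes called at both ages. The 152 falls keep their sign in the left panel, while 129 of the 133 genes that fell at 3 and rose at 9 months move above 0.

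Few genes had a difference between the ages whichever 3-month control was used. There were 174 with the same sign in both, 156 lower and 18 higher at 9 months, and 9 more were called with opposite signs. These counts are a description and no independent support. The 2 differences share the IRF8KO libraries and all 9-month libraries, and the level in the other control was used to choose the genes. Shares over all tested genes were not counted. Of the 156, 67 had 3 or fewer counts in IRF8KO at 9 months. P2ry12 was lower at 9 months by 1.93 (adjusted p = 0.0176) with its own control and by 2.24 (adjusted p = 0.0143) with the other.

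Tgfb1, the cytokine on which microglial identity depends, was among the lower ones, was not at the floor and was chosen after its values were seen. It had 31.5, 20.1, 31.8 and 24.6 CPM in WT compared with 44.5, 45.9, 44.5 and 35.3 CPM in IRF8KO at 3 months, and 150.2, 136 and 156 CPM against 11.2, 8.71 and 15.4 CPM at 9 months. The knockout libraries lay above all WT libraries at 3 months and below them at 9. Its log2 change was 0.66 ± 0.31 (adjusted p = 0.216) and -3.64 ± 0.39 (adjusted p = 4.79e-06), but the 3-month effect was -2.68 with the other control, and the difference went from -4.30 to -1.33 (adjusted p = 1.48e-05 and 0.0413). In the 5xFAD pair it fell by 3.11 (adjusted p = 0.00726).

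The genes with the 8 most positive differences were the haemoglobin genes Hbb-bs and Hba-a1, the myelin gene Mbp, the astrocyte gene Aldoc, Cpe, Plekhb1, the mitochondrial ribosomal RNA mt-Rnr1 and Sarm1. All but Sarm1 had fewer counts in WT at 9 months than in any of the other 3 groups, and Sarm1 had none in IRF8KO at 3 months. Mbp had 46.9, 51.1 and 50.1 CPM in WT at 9 months against 6044, 19430, 54310 and 13460 CPM in WT at 3 months and 8660, 6671 and 4109 CPM in IRF8KO at 9 months. The 8 most negative, led by Pidd1, Tnfsf10 and Itpkc, had 3 or fewer counts in at least 1 group. Pidd1, an adaptor of caspase activation, had 11.9, 10.04 and 9.1 CPM in WT compared with 0, 0.14 and 0 CPM in IRF8KO at 9 months, 1 count in all, for a ratio of 261 with a 95% counting interval of 46.0 to 10400. Over the 791 lower differences, 101 had 3 or fewer counts in IRF8KO at 9 months and 69 had none.

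The balance of rises and falls moved with the scaling and with the model. Higher differences were 50.7% of the called ones, 59.0% with the size factors of DESeq2, 68.6% when only the 9083 genes set the scaling and 37.5% with limma's voom and quality weights, which changes the model too. Rises were 46.6% of the genes called at 9 months and 63.9% with scaling on the 9083 genes. The median difference over all tested genes was 0.40, and 0.57 and 0.79 under the first 2 of those alternatives, while over the 9083 genes it went from -0.33 to -0.16 and 0.07. The 152 falls and 115 rises all kept their sign at both ages under these 3 settings, which is a description since they were picked for calls in the same libraries. In the order given, 147, 138 and 141 of the falls were still called at both ages. For the rises the numbers were 111, 113 and 107.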

How the data were processed

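RNA-seq of sorted mouse microglia was deposited as 1 table per library with a read count per gene. Per the submitters' processing notes the authors used bcl2fastq, STAR 2.5.2b, Picard 2.17.11, Subread and featureCounts with build mm10; the notes do not say which did what. The deposited counts have the layout of STAR's gene table, and the column that ignores strand was used, so overlapping and antisense genes cannot be told apart. Per the labels' protocols, libraries were made with SMART-Seq v4 and Nextera XT, without molecular identifiers. Of 54146 gene IDs, 54079 matched the GENCODE M21 annotation when versions were ignored.

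edgeR 4.0.16 (R 4.3.3) fitted the 14 libraries of WT and IRF8KO at both ages together, with TMM factors, filterByExpr, the quasi-likelihood test and Benjamini-Hochberg adjustment over 15512 genes, and called genes under 0.05. The 5xFAD pair was fitted on its own 6 libraries. An SE is the absolute log2 change divided by the root of F. DESeq2 1.42.0 and limma 3.58.1 served as alternatives. The model was tested on simulated data. The 9083 genes, the gene lists and the tests were chosen with earlier results of these data known. Named genes were Irf8 and Batf3, the 10 falls and 10 rises with the largest smaller change among those without overlap, genes alike within the margin, 10 with opposite changes, the 8 most extreme differences each way, and examples of lists. Other genes named, among them Aif1, Slamf8, Tgfb1 and Dcaf12, and the ribosomal and mitochondrial lists were chosen after values were seen. Promoters are from RefSeq, GRCm38.p6. Some results on single genes are not reported here.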

Additional observations from a re-analysis of the deposited data

Results flagged for a closer look

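In WT at 3 months 9 of 55 genes looked at had 1 library far from the other 3 (Dixon's 95% criterion, which chance meets in about 1 of 20 groups), and in IRF8KO at 3 months 3 of 48 did. Replicate 1 of WT was high for Tnfrsf17 (64.2 CPM), Gm42944 (11.5 CPM), Trim68 (5.16 CPM) and Arhgap27os3 (7.46 CPM). Replicate 3 was high for Mrc1 (19.1 CPM) and Itpkc (1.43 CPM), and replicate 4 for Thbs1 (10.9 CPM), Camk2n1 (393 CPM) and Sall1 (93.0 CPM). In IRF8KO replicate 2 was low for Mrc1 (187 CPM) and high for Cst7 (150 CPM), and replicate 4 was low for Gm7694 (4.19 CPM).

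The difference of the effects was called in the named genes below. Since the comparison was chosen on that difference and many of these genes were picked for its size or for opposite effects, their log2 differences (9 minus 3 months) are a description. Among microglial genes they were -1.93 for P2ry12, -2.13 for Tmem119, -2.03 for Cx3cr1 and -3.98 for Cd74, and 3.56 for Apoe and 3.40 for Lpl. Among genes with opposite effects they were 7.43 for 9330162G02Rik, which overlaps Ube3a, 6.28 for CT010467.1, which overlaps AY036118 and Gm42418, 5.40 for Kcnq1ot1, 4.71 for Malat1, 6.74 for Camk2n1, 4.20 for Atp5g1, -5.55 for Gmip and -4.99 for Trpm2. The most positive were 13.39 for Hbb-bs, 13.31 for Hba-a1, 8.62 for Sarm1, 8.28 for mt-Rnr1, 8.12 for Aldoc, 8.08 for Cpe, 7.74 for Plekhb1 and 7.60 for Mbp. The most negative were -12.61 for Pidd1, -12.51 for Tnfsf10, -12.10 for Itpkc, -12.02 for Gm7694, -11.47 for Trim68, -11.43 for Zfp319, -11.36 for Arhgap27os3 and -11.17 for Mmp2. Those 8 and Sarm1 had 3 or fewer counts in a group, so their values depend on the fit and are no bounds.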

How the results depend on the processing

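Counts that moved by over 1.5 times are given here. Genes alike within 1 log2 unit numbered 5 with DESeq2's size factors, 7 with scaling on the 9083 genes, 2 without the low-count filter, 11 with DESeq2, 4 with voom, 41 with all 33 libraries in 1 model, 0 with a sex score as covariate, 240 with the other 3-month control and 5 with the SE taken from both effects, and 125 within 2 log2 units (152 with scaling on the 9083 genes); the SE and the last setting were chosen after seeing the data. Genes that rose at 3 and fell at 9 months numbered 15 with DESeq2's size factors and 9 with scaling on the 9083 genes, which gave 1446 rises at 9 months. DESeq2 gave 594 rises and 869 falls at 3 months, 243 falls and 197 rises at both ages, and 294 and 48 opposite changes. Voom gave 1361 lower differences, 572 rises and 687 falls at 3 months, 233 falls at both ages and 52 that rose and then fell. Each age alone gave 81 and 12 opposite changes. All 33 libraries gave 1287 higher and 1472 lower differences, 1020 rises and 881 falls at 3 months, 1608 rises at 9 months, 260 falls and 322 rises at both ages, and 345 and 113 opposite changes. The sex score left 91 falls at both ages. The other control gave 36 higher and 254 lower differences, 1346 rises and 1860 falls at 3 months, 2368 falls at 9 months, 1300 falls and 754 rises at both ages, and 4 that fell and then rose. The cause of these moves was not tested.

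A replicate block gave 262 falls at 3 months, 84 genes that fell and then rose and 2 alike, and in the 5xFAD pair 551 rises and 686 falls. Same-numbered libraries correlated at -0.051, 0.175, 0.168 and 0.096 at 3 months and -0.009, 0.006 and 0.014 at 9 months, so the numbers were not taken as pairing, and not every library correlated best with its own number.

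Leaving out 1 library gave 578 to 925 higher and 387 to 1021 lower differences, 200 to 473 rises and 124 to 513 falls at 3 months, 662 to 1120 rises and 592 to 1200 falls at 9 months, 68 to 174 falls and 83 to 154 rises at both ages, 25 to 171 and 6 to 40 opposite changes, and 0 to 10 alike. In the 5xFAD pair it gave 339 to 1141 rises and 443 to 1740 falls, with 109 to 140 of the shared falls and 83 to 107 of the shared rises.

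Reversals came from the other 3-month control alone. At 3 months Tnfsf10 was at -1.14, Pidd1 -0.59, 9330162G02Rik 0.23, Trpm2 -0.53, Camk2n1 2.91, Malat1 0.37, Gmip -0.82, Atp5g1 1.96, mt-Rnr1 6.16, Tlr13 -1.29, Tlr2 -1.15, Tlr4 -0.88, Ifi27l2a 1.19, Stab1 -1.43, Rps21 1.91, Rpl38 2.22, Ndufa11 1.58 and Dcaf12 -0.05. Differences became -0.03 for Atp5g1, 0.30 for Cx3cr1, -0.30 for Apoe, -0.68 for Ifitm3, -0.72 for Ifi27l2a and 0.00 for Ndufa11. Over all named genes and settings 4795 values kept direction and call, 286 lost and 20 gained a call, and 24 reversed. Depth limits genes at 3 or fewer counts.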
